A study of Homo sapiens with 4 samples.

Results

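Clusters of PR100 crosslinking that lie antisense to annotated genes were taken from the list that the authors called on their 4 pooled libraries. A cluster belonged to this set when its summit, the position with the most cDNAs and the leftmost in case of ties, lay in no gene of the GENCODE annotation on its own strand but inside a gene on the opposite strand. Of the 5365 clusters on chromosomes 1 to 22 and X, leaving out chromosome 21 below 8.5 Mb, 374 (6.97%) met this rule, whereas 4504 lay in a gene on their own strand and 487 lay outside genes on both strands. The 374 clusters held 15702 cDNAs, which was 12.7% of the cDNAs in these clusters and 1.26% of all cDNAs of the pooled libraries. The clusters were chosen by the pooled cDNA counts and their place, so their strand, size and sum of cDNAs are a description and carry no test.

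Antisense transcription is common in human cells. It starts at bidirectional promoters, runs past the end of a neighbouring gene on the other strand, or comes from separate non-coding genes, some of which are not annotated. In CLIP data the strand is that of the read, and reads of abundant RNAs with copies across the genome, such as ribosomal RNA, can also be placed on the antisense strand of a gene.

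PR100 is an arginine-rich dipeptide repeat protein of 100 proline-arginine units, of the kind made from the C9orf72 repeat expansion in ALS and frontotemporal dementia. All 4 libraries were of 1 group: HEK293T cells, a transformed human embryonic kidney line, that carried a transiently transfected plasmid for FLAG-tagged PR100, received doxycycline at 150 ng/ml for 24 h and then UV light of 254 nm at 160 mJ/cm2. Complexes of replicates 1 to 3 were cleaned by SDS-PAGE and those of replicate 4 on beads, and the random barcode was 5 nt long in replicate 3 and 7 nt long in the others. The libraries held 334057, 604816, 125694 and 179636 unique cDNAs in replicates 1 to 4, each placed at the nucleotide before the start of its read. Libraries of the FLAG-only, non-crosslinked and GA100 samples were not analysed here, so the antisense signal of a control is not given. The labels do not say whether the replicates were separate cultures, so the spread between them may be technical. PR100 in these cells was overexpressed from a plasmid.

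The sequences at the largest antisense clusters are shown first, because the base content and the counts by library are read against them. Each run below is the RNA strand of the cluster, 5′ to 3′, starting 5 nt before the summit and ending 24 nt after it, read from GRCh38. Capitals mark the longest stretch shared with the 45S ribosomal RNA precursor, where that stretch has at least 12 nt inside the 36-nt window that starts 5 nt before the summit and ends 30 nt after it. Clusters are named by the gene on the opposite strand, with a number where a gene faces several. The first 12 are the clusters with the most cDNAs, in that order.
DLG2-1, chr11:85484056-85484085, plus strand: CGAUAGUCAACAAGUACCGUAAGGGAAAGU
ENSG00000251391, chr5:66326437-66326466, minus strand: ccuagguGUCAACAAGUACCaaggcaggcu
ENSG00000286016-1, chr12:127166361-127166390, minus strand: cgccucuUAAGUCAGAAUCCCGCCCAGGCG
MAGI2, chr7:78297153-78297182, plus strand: ccuuccaaagaguaccgaagggaaagggag
SLC13A5, chr17:6701945-6701974, plus strand: uuuagcucaagagugucaaagcaggcgcag
PRPF6, chr20:63981223-63981252, minus strand: uguucaugGUGGCGGCGACGACCaaggcua
NEMP2-DT, chr2:190537999-190538028, minus strand: cuacuguUGAUGUGUUGUUGCCAUGGUAAU
PGAM1P5, chr12:95571308-95571337, minus strand: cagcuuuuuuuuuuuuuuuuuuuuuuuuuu
UNC45B, chr17:35151145-35151174, minus strand: caguaauGGCGAGUGAACAGGGAAGAGCCC
ENSG00000286016-2, chr12:127166071-127166100, minus strand: gcccuuuGUCCUGGGAAACGGGGCGCGGCc
TTC3, chr21:37181248-37181277, minus strand: uaguuggcaacaaguaccuaagggaguuca
RBFOX1-1, chr16:5530945-5530974, minus strand: uuuuuuuuuuuuuuuuuuuuuuuuuuuuuu

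Of these 12, 7 shared 12 nt or more with the ribosomal precursor in the same orientation, 2 were runs of U and 3 had neither. The shared stretches at DLG2-1 and ENSG00000251391 cover the same bases of the 28S RNA, from position 351 to 380 and from 356 to 368. TTC3 shared 11 nt. The capitals start 2 or 3 nt after the summit in 6 of the 7 and cover the whole run in DLG2-1.

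The largest antisense cluster lay opposite an intron of DLG2, which codes for a synaptic scaffold protein, 144274 nt from the start of the gene. It spanned chr11:85484019-85484119 and held 1759 cDNAs, of which 1045 were at the summit. Replicates 1 to 4 gave 250, 1304, 31 and 174 of them, or 748, 2156, 247 and 969 CPM (cDNAs per 1000000 of the library). The mean was 1029.9 ± 809 CPM (SD, n = 4), and replicate 2 was the highest and replicate 3 the lowest. The 36 nt of the window were all shared with the 28S RNA, and the 31 nt from the summit on occurred at 9 places of the genome.

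The second cluster, opposite an intron of the non-coding RNA gene ENSG00000251391, spanned 3 nt and held 111, 618, 0 and 81 cDNAs in replicates 1 to 4. Replicate 3 thus lacked a cluster that gave 332, 1022 and 451 CPM in the others. A cDNA count of 0 in replicate 3 allows up to 23.9 CPM, the value of 3 cDNAs, which lies below each of the other libraries. The same held for MAGI2, which codes for a scaffold protein of cell junctions, with 50, 394, 0 and 27 cDNAs, and for SLC13A5, which codes for a citrate transporter, with 13, 234, 0 and 22.

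The third cluster lay opposite an intron of ENSG00000286016, a long non-coding RNA gene on chromosome 12, and held 73, 268, 55 and 308 cDNAs in replicates 1 to 4. Here replicate 4, the library cleaned on beads, was the highest at 1715 CPM, and the other libraries gave 219, 443 and 438 CPM. Replicate 4 was also the highest at NEMP2-DT, a divergent non-coding transcript, with 74.8, 172, 31.8 and 629 CPM, but there replicate 3 was the lowest. ENSG00000286016 faced 4 antisense clusters, at chr12:127166090-127166446, with 934 cDNAs in all. Their shared stretches start at positions 4880, 4753, 4696 and 4638 of the 28S RNA in order of the genome coordinate, so that the 4 clusters on the minus strand follow the order of the 28S RNA.

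PRPF6, which codes for a splicing factor of the tri-snRNP, had an antisense cluster opposite its coding sequence 115 nt from its start, with 5, 240, 7 and 2 cDNAs. Replicate 2 gave nearly all of them, at 397 CPM against 15.0, 55.7 and 11.1 CPM in replicates 1, 3 and 4. UNC45B, which codes for a myosin chaperone, faced a cluster with 44.9, 251, 103 and 200.4 CPM, and this was 1 of 7 that overlapped a cluster in the list of each single library. TTC3, which codes for a ubiquitin ligase, faced a cluster with 34, 152, 0 and 4 cDNAs. The clusters of U runs opposite PGAM1P5, a pseudogene, and RBFOX1, which codes for a neuronal splicing regulator, were seen in replicates 1 and 2 almost alone. PGAM1P5 held 104, 113, 0 and 0 cDNAs and RBFOX1-1 held 56, 126, 0 and 1.

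**Figure D1:**
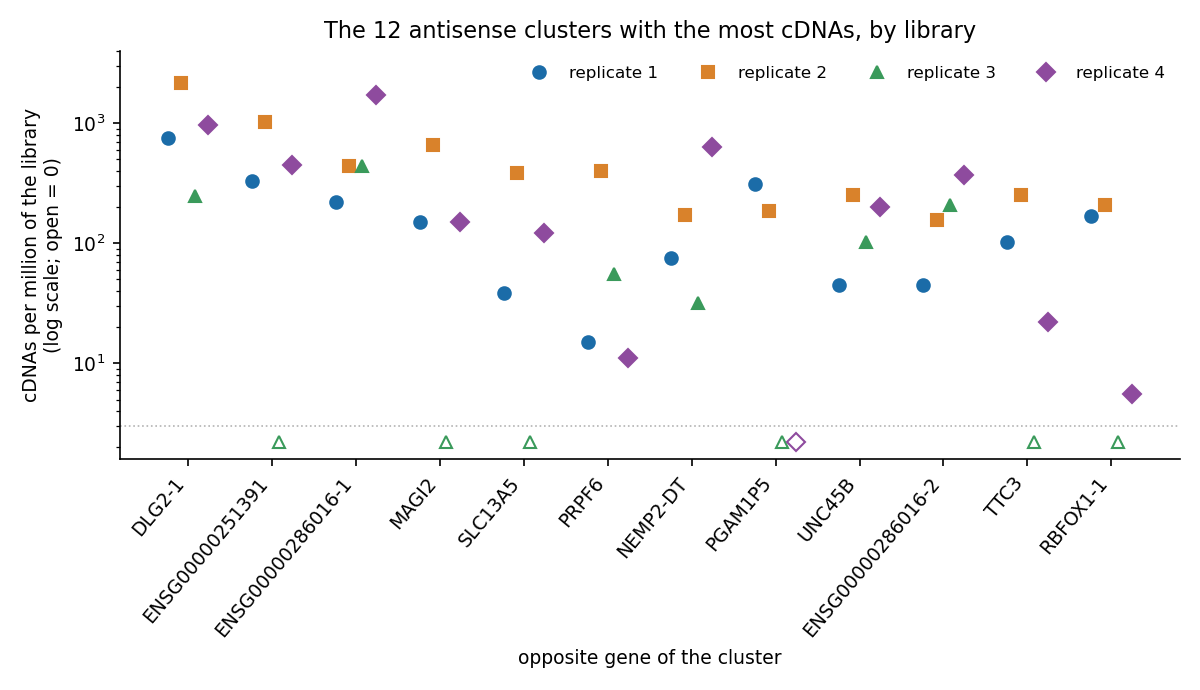
CPM (log scale) in the 12 antisense clusters with the most cDNAs, 1 point per library, with open points under the dotted line for a count of 0. Replicate 3 is at 0 in 6 of the 12 clusters, and the order of the libraries changes from cluster to cluster.

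The 12 clusters held 5522 of the 15702 antisense cDNAs (35.2%). The others were small: the median cluster held 17 cDNAs (quartiles 12 and 35), 49 held exactly 10, the lowest count in the list, and 27 held 100 or more. The median width was 5 nt and 268 clusters were at most 10 nt wide. The summit alone gave a median of 58.3% of the cDNAs of a cluster. The 374 clusters fell into 363 loci when those within 10 kb were joined, and they faced 353 genes, of which 338 faced only 1.

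Ribosomal RNA sequence was found in 135 of the 374 clusters (36.1%), counted as at least 12 nt of the window shared with the 45S precursor in the same orientation. This count was made after the sequences had been seen and has no test. These clusters held 7765 cDNAs, 49.5% of the antisense cDNAs. The reverse complement of the precursor gave 37 clusters (9.89%) by the same rule, and windows of the same length 101 to 136 nt upstream or downstream of the summit gave 7.75% and 6.95%. Among clusters in a gene on their own strand the share was 7.73% in the same orientation and 5.28% in the reverse complement. Among clusters outside genes on both strands it was 42.3% and 6.16%. The antisense clusters thus stood near the clusters outside genes in this measure.

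By library, windows with ribosomal sequence held 35.1%, 50.7%, 37.7% and 69.0% of the antisense cDNAs in replicates 1 to 4, a mean of 48.1% ± 15.5 (SD, n = 4). The reverse complement gave 4.83%, 5.75%, 12.6% and 5.65%. The lowest share in the same orientation was above the highest in the reverse complement. In the sense clusters the share in the same orientation was 7.38%, 12.9%, 8.51% and 10.0%. The lists that the authors called on each library alone held 45, 197, 55 and 28 antisense clusters, of which 26.7%, 38.1%, 34.5% and 71.4% had ribosomal sequence.

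**Figure D2:**
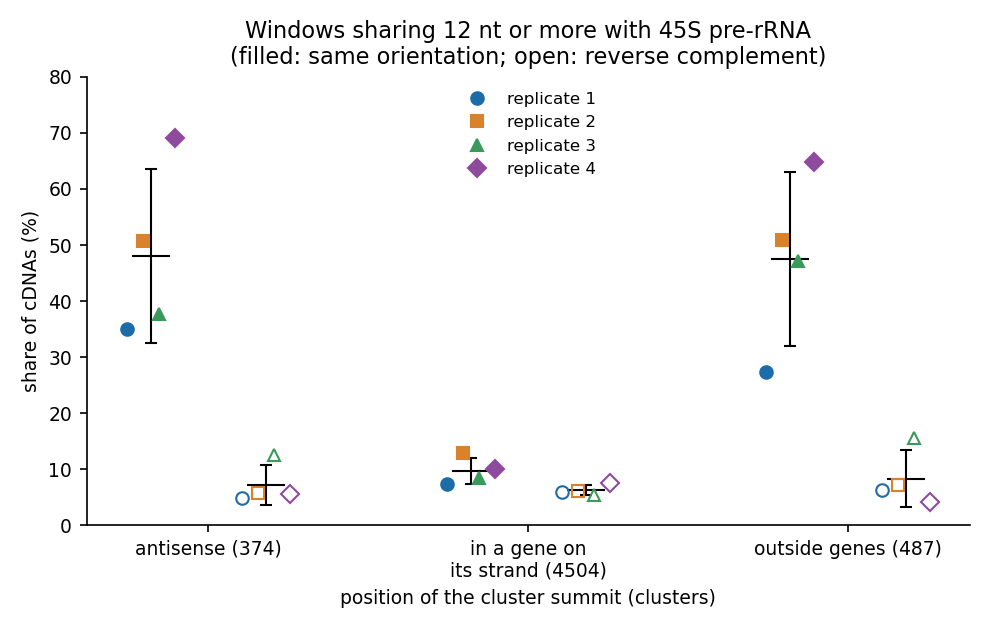
Share of the cDNAs in windows that share at least 12 nt with the 45S precursor, by library, for antisense clusters, clusters in a gene on their strand and clusters outside genes; filled points are the same orientation, open points the reverse complement, and the bars show mean ± SD over 4 libraries. The filled points of the antisense clusters lie between 35.1% and 69.0%, all above the open ones.

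The shared stretches were in the 28S RNA in 98 of the 135 clusters, in the 18S RNA in 25, in the 5.8S RNA in 3 and in the spacers in 9. Their longest run had 36 nt, and 33 clusters shared 20 nt or more. In 49 of the 135 (36.3%) the stretch began 2 nt after the summit, the second base of a read, and in 78 it began between the summit and 3 nt after it. Several clusters at unlinked places shared the same bases. Stretches that began between positions 351 and 357 of the 28S RNA were found at 6 clusters with 2696 cDNAs, which faced DLG2, ENSG00000251391, PHKA2, ENSG00000239482, KCNMB2-AS1 and LINC02994. They gave 1135, 3348, 247 and 1453 CPM in replicates 1 to 4, and the 31 cDNAs of replicate 3 were all in DLG2-1. A further 12 clusters with stretches from position 369 to 390 gave 198, 283, 278 and 77.9 CPM. The 8 clusters with stretches that began between positions 1150 and 1160 of the 18S RNA, the one opposite ATP2A2 among them, gave 56.9, 408, 716 and 33.4 CPM, with replicate 3 the highest. The order of the libraries thus differed between these stretches. The 5 clusters with stretches that began between positions 530 and 542 of the 18S RNA gave 53.9, 311, 47.7 and 273 CPM. This was the same order as in the clusters from position 351 to 357 of the 28S RNA. The 7 clusters with 28S stretches from position 4864 to 4890 gave 77.8, 306, 302 and 451 CPM, with replicate 4 the highest. Whether these cDNAs came from ribosomal RNA or from RNA of the antisense strand was not tested.

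A run of at least 10 U in the window marked 30 other clusters (8.02%). They held 424, 752, 12 and 6 cDNAs in replicates 1 to 4, or 1269, 1243, 95.5 and 33.4 CPM, with replicates 1 and 2 both higher than replicates 3 and 4. Opposite RBFOX1, 2 of the 4 clusters were of this kind. The sequence of such windows need not be unique: at RBFOX1-1 the 31 nt from the summit on occurred at 77141 places of the genome. At TRPC1, whose window held other bases beside its U run, they occurred at 1 place. A further 19 clusters aligned to another structured RNA in either orientation, over at least 30 nt and at 85% identity or more, and held 60, 186, 137 and 73 cDNAs. They matched the signal recognition particle RNA family, U2 and U5 spliceosomal RNA, 5S ribosomal RNA or the mitochondrial 16S ribosomal RNA, or the reverse complement of these. Of all 54 antisense clusters that aligned, with U runs and ribosomal windows included, 23 did so in the same orientation. The other 190 clusters (50.8%) met none of these rules and held 1022, 3867, 841 and 557 cDNAs, or 3059, 6394, 6691 and 3101 CPM.

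**Figure D3:**
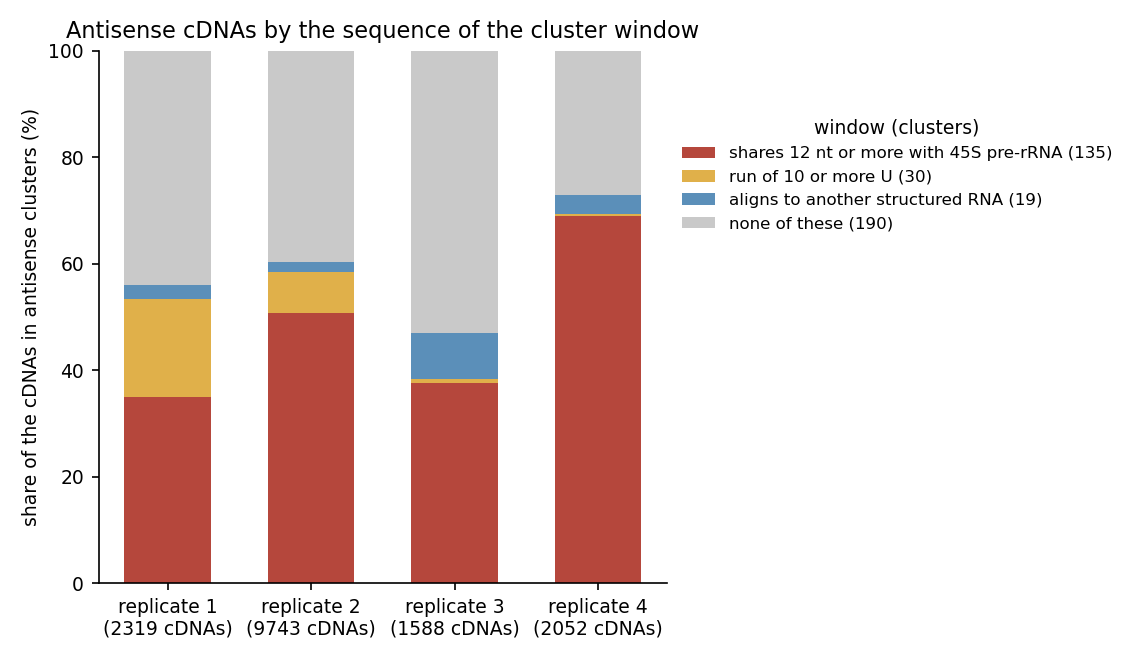
Share of the antisense cDNAs of each library by the kind of sequence in the cluster window, with the number of clusters in brackets. Windows with ribosomal sequence hold between 35.1% and 69.0%, U runs 18.3% and 7.72% in replicates 1 and 2 but under 1% in replicates 3 and 4, and windows with none of these between 27.1% and 53.0%.

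The genes on the opposite strand were protein-coding for 280 clusters (74.9%) and long non-coding for 86 (23%). The summit lay opposite an intron in 296 clusters (79.1%), opposite coding sequence in 34, opposite a UTR in 24 and opposite a non-coding exon in 20. The median distance from the start of the opposite gene was 36454.5 nt (quartiles 10163 and 131228) and from its end 42150 nt (quartiles 11828 and 135633), in genes with a median length of 101202 nt. Of the 374 clusters, 36 (9.63%) lay within 1 kb of the start, 14 (3.74%) within 1 kb of the end and 231 (61.8%) more than 10 kb from both. With each gene divided into 10 equal parts from its start, part 1 held 58 clusters, the most, and part 5 held 23, the fewest.

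Few genes faced several clusters. ENSG00000286016, RBFOX1 and ENSG00000279501 faced 4 each and 12 genes faced 2 each, of which DLG2 and LINC00486 had the most cDNAs. Opposite RBFOX1, RBFOX1-3 and RBFOX1-4 had no marked sequence and held 26, 8, 13 and 3, and 6, 3, 0 and 2 cDNAs in replicates 1 to 4, and RBFOX1-3, unlike both U runs, was also seen in replicate 3. The 4 clusters opposite the non-coding RNA gene ENSG00000279501 lay on chromosome 21, held 10 to 14 cDNAs each and were 39 to 106 nt wide, wider than the median of 5 nt. Together they gave 19, 22, 1 and 3 cDNAs, nearly all in replicates 1 and 2. The second cluster opposite DLG2 held 17 cDNAs, 0, 10, 4 and 3 in replicates 1 to 4, and its window shared 34 nt with the 28S RNA. The 2 clusters opposite LINC00486 held 13, 58, 40 and 1 cDNAs.

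Antisense cDNAs outside all clusters, 106753 in the pooled libraries, served for comparison with the position of the clusters, which the rule did not use. The comparison asks whether the clusters were closer to promoters, gene ends or exons than the rest of the antisense signal. Within 1 kb of the start of the opposite gene lay 3.19%, 9.10%, 11% and 6.38% of the cDNAs of the clusters in replicates 1 to 4, and 3.52%, 5.21%, 6.68% and 6.31% of the cDNAs outside clusters. The clusters were higher in 3 of 4 libraries, by 1.98 ± 2.44 percentage points (SD, n = 4), with p = 0.375 in an exact sign-flip permutation test (two-sided). With 4 libraries this test cannot give a p below 0.13, so no comparison here could pass a threshold of 0.05. Within 1 kb of the end of the gene lay 2.46%, 1.24%, 4.91% and 0.926% of the cDNAs of the clusters, against 3.44%, 3.36%, 3.46% and 5.19% outside. The difference was -1.48 ± 2.38 points (SD, n = 4; exact sign-flip permutation p = 0.375). The groups of libraries overlapped in both comparisons.

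With cDNAs as weights, the difference in position was largest in the 10 kb that follow the end of a gene on the strand of the cDNA itself, where transcripts that run past their annotated end would lie. These stretches held 12%, 12.6%, 14.7% and 9.26% of the cDNAs of the antisense clusters and 23.2%, 20.3%, 19.4% and 33.1% of the antisense cDNAs outside clusters. The share was lower in the clusters in 4 of 4 libraries, by -11.8 ± 8.41 points (SD, n = 4), and the 2 sets of values did not overlap. In the exact sign-flip permutation test p was 0.13, the smallest it can give, or 0.333 after Benjamini-Hochberg adjustment over the 8 comparisons made. Without windows of ribosomal sequence, an alternative added after the data were seen, the difference was -3.39 ± 5.58 points and positive in 2 of 4 libraries, and with each cluster weighted equally it was -6.64 ± 9.64 and positive in 1 of 4. Ribosomal windows were left out of the clusters only and not of the antisense cDNAs outside them. Equal weights counted each cluster, and each position outside clusters, once where the library had a cDNA. Near gene starts they gave 4.43 ± 0.29 points, higher in the clusters in 4 of 4 libraries (exact sign-flip permutation p = 0.13). The libraries share many of the same clusters in this count, so the SD says little about the spread between replicates. Counted as clusters, 65 of the 374 (17.4%) lay within 10 kb past such an end and 6 within 1 kb.

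Exons of the opposite strand faced 11.6%, 14%, 30.3% and 12.1% of the cDNAs of the clusters, against 15.0%, 16.3%, 18.1% and 22.6% outside. Replicate 3 alone was higher in the clusters, and the mean difference was -0.99 ± 9.54 points (SD, n = 4; exact sign-flip permutation p = 0.75). The sign of this difference changed with the setting, and leaving out replicate 4 gave 2.2 points.

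**Figure D4:**
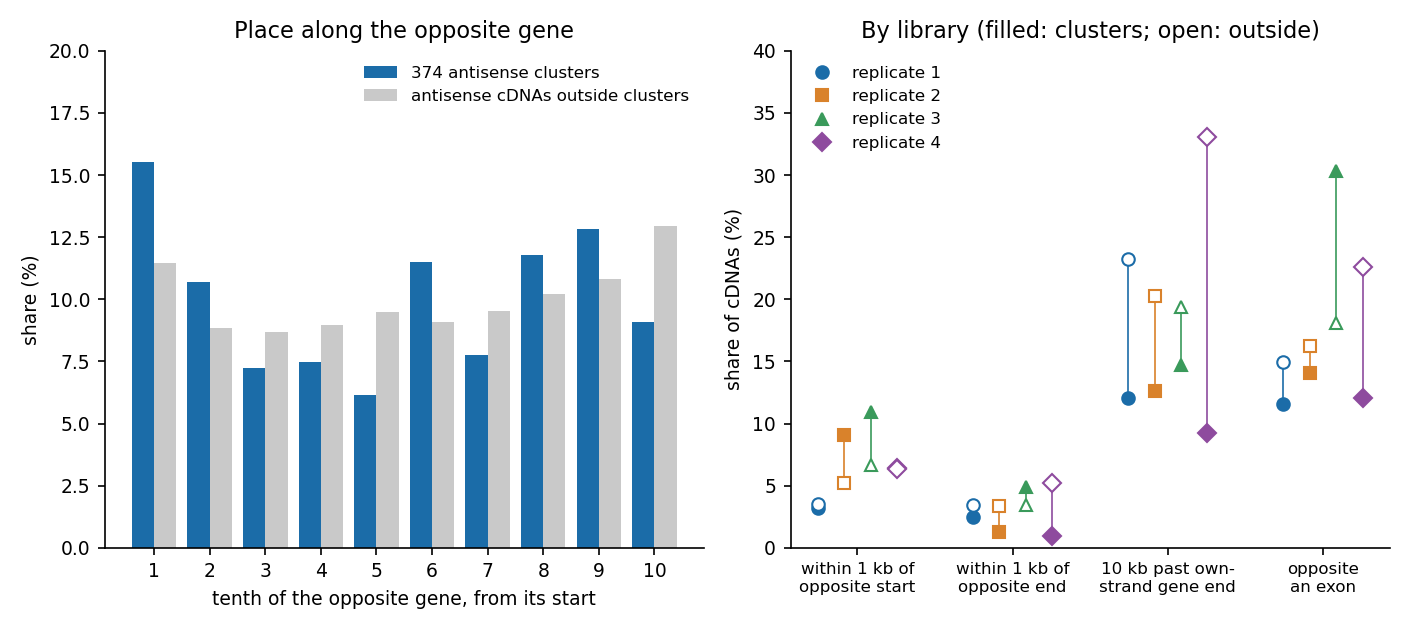
Left, share of the 374 antisense clusters and of the antisense cDNAs outside clusters in each of 10 equal parts of the opposite gene, from its start. Right, share of the cDNAs of each library in 4 kinds of place, filled for the clusters and open for antisense cDNAs outside them; the filled points lie below the open ones in every library only for the 10 kb past a gene end on the own strand.

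By position, the clusters with the most cDNAs beyond the first 12 were as follows. Within 1 kb of the start of the opposite gene were those facing LINC02182, at 678 nt with 11, 150, 0 and 5 cDNAs in replicates 1 to 4, LINC02453, at 348 nt with 13, 30, 17 and 66, and NACC2, at 647 nt with 0, 39, 19 and 2. LINC02453 was 1 of the 7 clusters that overlapped a cluster in each single list. It lay at TRD-GTC1-1, a tRNA gene of RefSeq whose strand the table used here does not give. Near the end of the gene, KDM4F faced a cluster at 609 nt with 13, 20, 9 and 3 cDNAs, ENSG00000289267 at 549 nt with 0, 13, 12 and 1, and MARK2P13, a pseudogene, at 131 nt with 9, 9, 7 and 1. These counts were small, and no library stood out in all of them.

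Opposite exons, the largest clusters faced the coding sequence of ATP2A2, which codes for the calcium pump of the endoplasmic reticulum, with 6, 98, 41 and 4 cDNAs, a UTR of TOR3A, which codes for a torsin ATPase, with 61, 6, 23 and 58, and a non-coding exon of MCF2L, with 3, 44, 0 and 61. At TOR3A replicate 2 was the lowest with 9.92 CPM and replicate 4 the highest with 323 CPM, whereas at ATP2A2 replicate 1 was the lowest with 18 CPM and replicate 3 the highest with 326 CPM. The windows of ATP2A2 and MCF2L shared 15 nt each with the ribosomal precursor, and TOR3A shared 10. Deepest inside their genes were RBFOX1-2, 1110695 nt from the start of RBFOX1, DMD, which codes for dystrophin, with 785704 nt to its end, and CSMD1-1, with 725129 nt to the end of a gene for a complement regulator. RBFOX1-2 and CSMD1-1 were U runs with no cDNA in replicates 3 and 4, and the cluster in DMD held 1, 6, 1 and 6.

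The study searched for sequence motifs around the sites of PR100, and base content was therefore computed for the antisense clusters. In the 30 nt after the summits, A and G made up 46.6%, 54.2%, 54.1% and 54.2% of the bases in replicates 1 to 4, weighted by cDNAs. The flanks from 51 to 100 nt on both sides of the same clusters had 50.1%, 51%, 50.3% and 50.3%. The difference was 1.83 ± 3.62 points (SD, n = 4; exact sign-flip permutation p = 0.375), with replicate 1 below its flanks and the other 3 above. Without the clusters of U runs, an alternative added after the data were seen, it was 5.03 ± 1.34 points and positive in 4 of 4 libraries, and without ribosomal windows it was -1.27 ± 5.92 and positive in 2 of 4. The U-run rule reads nearly the same bases as the purine share and not the flanks, so leaving U runs out raises this difference by construction. The purine share was lower than in sense clusters in 3 of 4 libraries, by -3.13 ± 4.01 points (SD, n = 4; exact sign-flip permutation p = 0.375). Without the U runs of both kinds of cluster this was -0.39 ± 3.14 points, with the antisense clusters higher in 3 of 4. It was higher than in clusters outside genes in 4 of 4, by 6.47 ± 6.53 points (SD, n = 4), with p = 0.13 in the same exact permutation test, or 0.333 after adjustment. Those clusters had 33.1%, 43.6%, 53.1% and 53.4% of purines, so replicates 1 and 2 gave nearly all of the difference. It was 2.49 ± 2.22 points without U runs and 0.37 ± 1.38 with each cluster weighted equally.

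Counting each cluster once, the 30 nt downstream held 23.1% A, 24.6% C, 26.2% G and 26% U in antisense clusters, and 27.1%, 22.8%, 27.5% and 22.7% in sense clusters. Purines made up 5.33% in the 30 clusters of U runs, 53.5% in the 135 with ribosomal sequence and 52.4% in the 190 with no marked sequence. At single positions, U was most frequent at the first nucleotide after the summit, in 39.8% of antisense clusters and 34.0% of sense clusters, where G was at 13.6% and 11.3%. The sixth nucleotide held G in 35.8% of antisense clusters.

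**Figure D5:**
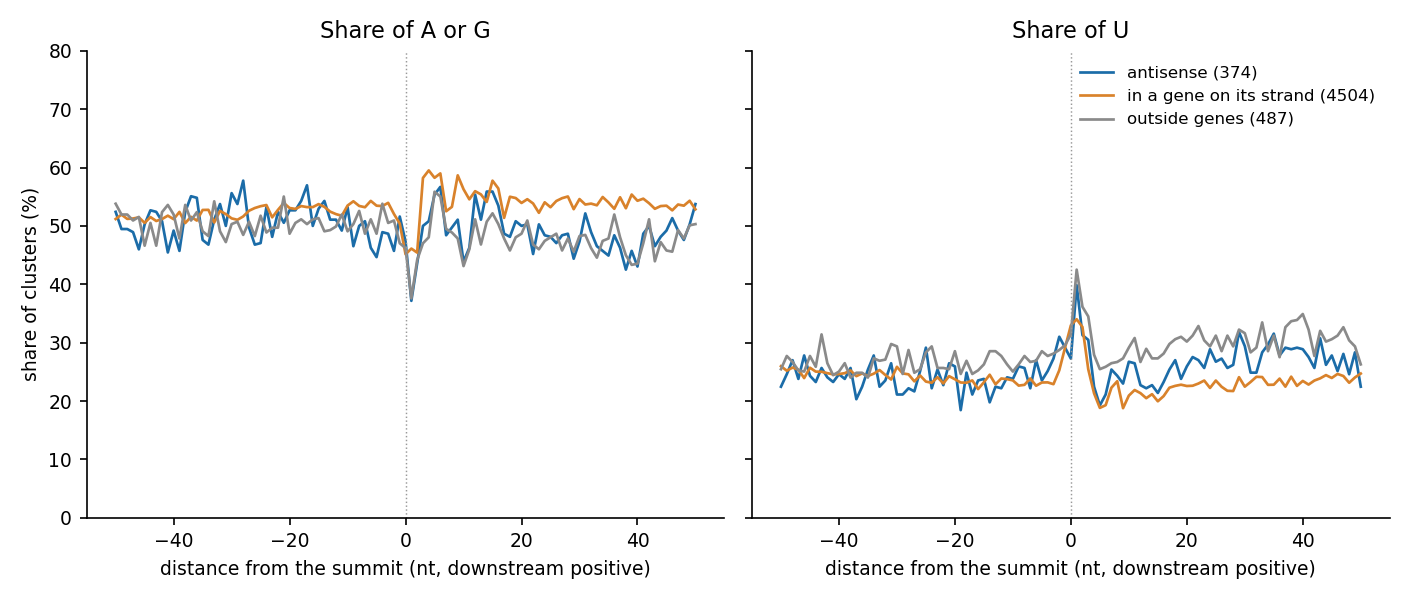
Share of clusters with A or G (left) and with U (right) at each distance from the summit, in nt with downstream positive, for 374 antisense clusters, 4504 clusters in a gene on their strand and 487 outside genes; each cluster counts once. In the antisense clusters U peaks at 39.8% in the first nucleotide after the summit, and G or A in the first 30 nt downstream is below the sense clusters at all distances but 14 nt.

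The pentamer GAAGA, searched on the strand of the cluster in the 36-nt window, was in 21 of the 374 antisense clusters (5.61%), in 16.2% of sense clusters and in 4.11% of clusters outside genes. Its reverse complement UCUUC was in 13 antisense clusters (3.48%) and 3.82% of sense clusters. Weighted by cDNAs, GAAGA windows held 4.4%, 5.11%, 4.35% and 3.27% of the antisense cDNAs in replicates 1 to 4 and 18.4%, 18%, 11.6% and 22.9% of the cDNAs in sense clusters. The values did not overlap, and the difference was -13.4 ± 5.08 points (SD, n = 4; exact sign-flip permutation p = 0.13, 0.333 after adjustment). Against the 852 sense clusters whose summit lay outside exons, a comparison added after the data were seen, the values overlapped. Those clusters had GAAGA at 5.11%, 3.75%, 4.04% and 2.18%, and the antisense clusters were 0.51 ± 0.93 points higher (SD, n = 4; exact sign-flip permutation p = 0.375). Their purine share was 44.4%, 48.4%, 50.8% and 51.1%, and the antisense clusters were higher by 3.58 ± 1.54 points in 4 of 4 libraries (SD, n = 4; exact sign-flip permutation p = 0.13).

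Of the related motifs, GAGGA was in 23 antisense clusters (6.15%) and 10.6% of sense clusters, and GACGA in 17 (4.55%) and 3.00%. The pattern GANGA, here any of GAAGA and these 2, was in 54 antisense clusters (14.4%) and 24.2% of sense clusters. AUAAU was in 5 (1.34%) and in 2.18%. The clusters with the most GANGA motifs are shown with the motifs in capitals. The purine share of the 30 nt after the summit was 33.3% at CLSTN2, 60% at GALK2 and 70% at EEF2.
CLSTN2, chr3:140420552-140420581, minus strand: cacacuuuucgccccGAAGAAGAcauuuuu
GALK2, chr15:49285439-49285468, minus strand: aaGAAGACGAccaaggccaaggccuugaag
EEF2, chr19:3985434-3985463, plus strand: ccGAGGAuggcggcGACGAcggcgGAAGAg

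CLSTN2, which codes for a synaptic membrane protein, faced a cluster with 38, 102, 0 and 3 cDNAs in replicates 1 to 4, again without replicate 3. The cluster opposite GALK2, which codes for a sugar kinase, held 5, 8, 3 and 1. That opposite EEF2, the gene of the elongation factor that moves the ribosome along the mRNA, lay 24 nt from the start of the gene and held 1, 9, 0 and 1. In the latter 2 a count differs between libraries by a few cDNAs, and no library can be called higher.

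Presence in the single libraries was uneven. A cDNA was found in 272, 356, 211 and 230 of the 374 clusters in replicates 1 to 4, and 101 clusters (27%) had one in each library. Of the sense clusters 18.2% did, and of the clusters outside genes 29.6%. By size, the share was 17.1% of antisense and 11.5% of sense clusters with 10 to 19 cDNAs, 31.1% and 38.4% with 20 to 49, and 55.0% and 64.1% with 50 or more. In 99 clusters 1 library gave more than 80% of the cDNAs, and in 78 of these it was replicate 2, the deepest. All antisense clusters together gave 6942, 16109, 12634 and 11423 CPM, or 10.8%, 15.4%, 8.07% and 10.4% of the cDNAs in clusters of each library.

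A cluster of the same strand in the list of replicate 1 alone was overlapped by 47 of the antisense clusters (12.6%), against 8.05% of all pooled clusters. The lists of replicates 2, 3 and 4 overlapped 195 (52.1%), 55 (14.7%) and 29 (7.75%), against 31.6%, 9.51% and 7.21% of all. At least 1 list was overlapped by 229 (61.2%; 41% of all), at least 2 by 69 (18.4%; 11% of all) and each of the 4 by 7 (1.87%; 0.876% of all). Since the pooled counts include each library, these overlaps are a description. They were not split by size, and 211 of the 374 antisense clusters had 10 to 19 cDNAs, against 3587 of the 4504 sense clusters. The 7 that overlapped each list were DLG2-1, DLG2-2, ENSG00000286016-1, ENSG00000286016-2, UNC45B, PPEF2 and LINC02453. The window of each but LINC02453 had ribosomal sequence of the 28S RNA. DLG2-2 held no cDNA in replicate 1, so in that list only the intervals overlapped and the cluster itself was not seen.

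The strand of the opposite gene carried few cDNAs at the same place. Within the intervals of the clusters, 367 of 374 had none on the gene strand, which held 16 cDNAs against 15702 on the antisense strand. Within 100 nt of the cluster summit 297 (79.4%) had none, and in 6 the gene strand held more, among them EEF2 with 31 cDNAs against 11 and IPO5 with 72 against 49. Of the 4504 sense clusters, 4445 (98.7%) had no cDNA on the other strand, against 98.1% of the antisense clusters. That strand held 398 cDNAs, or 0.444% of those in the intervals, against 0.102% at the antisense clusters. Of the 487 clusters outside genes, 485 (99.6%) had none, and the other strand held 2 cDNAs, or 0.0105%.

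Some clusters were antisense by a few nucleotides. A gene on the strand of the cluster started 1 to 4 nt downstream of the summit in 6 of them. These genes were RNU5A-1, RNU5F-1 and RNU5A-8P, of the U5 spliceosomal RNA, and RNA5SP150, RNA5SP370 and RNA5SP216, pseudogenes of 5S ribosomal RNA, and the clusters held between 24 and 96 cDNAs. Those before RNU5F-1, RNU5A-8P and RNA5SP216, opposite ARMH1, HHAT and HINT3, are counted among the 190 above. At the other side of the limit, clusters that counted as sense lay 4 nt inside RAD9A, 5 nt inside DHX9 and 9 nt inside RNA5SP202, each also opposite a gene, with 11, 10 and 22 cDNAs. In all, 536 clusters in a gene on their strand also faced another gene.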

How the data were processed

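The authors mapped reads with STAR to GRCh38 and Gencode 27, allowing 2 mismatches, kept reads with a single best place and collapsed PCR copies by the random barcode. The deposited values are unnormalised counts of unique cDNAs at each position of each strand. The authors called clusters with iCount (false discovery rate of 0.05) on each library and on the sum. The pooled counts were checked to be the sum of the 4 libraries.

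Here, summits were placed with GENCODE 44, which is later than the authors' version. Where several genes lay opposite, the protein-coding one and then the longest was taken. Shares were computed by library, weighted by cDNAs, and compared by exact sign-flip permutation (two-sided). CPM used the total of each library, 125694 to 604816 cDNAs, so 3 cDNAs are worth 4.96 to 23.9 CPM. This limit covers counting error only. The 45S precursor was that of RNA45SN1 (RefSeq, chromosome 21, 13351 nt). Windows of 61 nt were aligned with BLAST 2.17.0 to structured RNAs of GENCODE, in both orientations. Clusters, motifs and groups were chosen with earlier results of these data known. Named clusters were the 12 with the most cDNAs and, of the rest, the top 3 near the start, near the end, opposite exons, deepest inside and with the most GANGA motifs, and other clusters named were chosen after their values were seen. The functions were tested on simulated data, where the class was right for 2000 of 2000 positions. In all, 149 alternatives were planned and 20 added later, and that of single-library lists gave a count for each library. The tools were pysam 0.24.0, matplotlib 3.10.9, scipy 1.17.1, pandas 2.3.3 and numpy 2.4.6 in Python 3.11.15.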

Additional observations from a re-analysis of the deposited data

Results flagged for a closer look

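Of 38 sets of 4 library values examined, 7 had a value far from the other 3, where chance would give about 1.9, and several of these sets share values. The purine share downstream of the antisense clusters was 46.6% in replicate 1 and between 54.1% and 54.2% in the others. This value counts in the comparisons with the flanks, with sense clusters and with clusters outside genes, and the difference from the flanks was -3.58 points in replicate 1 against 3.21 to 3.86 in the others. Clusters of U runs held 18.3% of the antisense cDNAs of replicate 1, and without such windows the difference from the flanks was positive in 4 of 4 libraries, at 5.03 ± 1.34 points (SD, n = 4). That setting removes windows by the bases that the share counts, so a rise was built in. The cause of the low value in replicate 1 was not tested. The share of cDNAs opposite exons was 30.3% in replicate 3 and 11.6% to 14% in the others. The PRPF6 cluster gave 397 CPM in replicate 2 and 11.1 to 55.7 CPM in the others. The ENSG00000286016-1 cluster gave 1715 CPM in replicate 4 and 219 to 443 CPM in the others.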

How the results depend on the processing

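Of 172 results under other settings, 152 kept their direction or size, 14 changed sign and 6 moved the number of clusters by more than 1.5 times. The number of antisense clusters, 374, was 101 with a cDNA required in each library, 45, 197, 55 and 28 in the lists of replicates 1 to 4 alone, and 239 without windows that share 12 nt with the 45S precursor, an alternative added after the data were seen. Leaving out each library in turn gave 357 to 374. For this the pooled clusters were kept and only their summits placed again, so the count could change little and does not measure stability. The purine difference from the flanks was -2.46 points with each position counted once, -0.26 with clusters weighted equally and -1.27 without ribosomal windows, but 5.03 without U runs, 5.15 without windows aligned to structured RNAs and 5.01 for clusters with a cDNA in each library, each positive in 4 of 4 libraries. The last settings overlap: windows aligned to structured RNAs include U runs such as RBFOX1-1, and only 4 of the 30 U runs had a cDNA in replicate 4. Against sense clusters it was 0.68 for clusters with a cDNA in each library and 3.58 for sense clusters outside exons, where the GAAGA difference was 0.51. The difference at gene ends was 0.47 with equal weights. The difference opposite exons was 1.58 with protein-coding opposite genes, 0.30 without windows aligned to structured RNAs, 0.056 with positions counted once, 4.55 with equal weights, 0.34 without the largest cluster, 1.88 without ribosomal windows and -5.35 to 2.2 with 1 library left out. The cause of these changes was not tested. In the comparisons of position, ribosomal windows, U runs and windows aligned to structured RNAs were left out of the clusters only. The antisense cDNAs outside clusters were not filtered. The differences from clusters outside genes (0.37 to 10.3 points), near gene starts (0.073 to 4.43) and past gene ends on the own strand (-16.6 to -3.39) kept the sign of their mean in each alternative, but not in each library: past gene ends, -3.39 was without ribosomal windows, with 2 of 4 libraries positive (exact sign-flip permutation p = 0.5). Each test paired values within a library, and no pairing between groups was possible because the 4 libraries form a single group. With 4 libraries no p can fall below 0.13, and a cluster with 10 cDNAs has few or none in the smaller libraries.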

Other observations

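The 24 nt that follow the summit were also set against the 45S precursor with mismatches, insertions and deletions allowed, a count made after the data were seen and with no test. At most 2 such edits were needed in 33 antisense clusters (8.82%) in the same orientation and in 0 in the reverse complement, and at most 4 in 58 (15.5%) and 11 (2.94%). In the same orientation, at most 2 edits were needed in 1.31% of sense clusters and 17.9% of clusters outside genes. At most 4 were needed in 2.73% and 25.3%. Among the 190 antisense clusters with no marked sequence, at most 6 edits were needed in 59 (31.1%) in the same orientation and in 33 (17.4%) in the reverse complement, and these 59 held 44% of the cDNAs of the 190. SLC13A5, TTC3 and LINC02182, each without a cDNA in replicate 3, needed 5 edits in the same orientation, and MAGI2 needed 6. In the reverse complement they needed 8, 8, 6 and 7. These are examples, and other unmarked clusters with no cDNA in replicate 3 varied. ENSG00000229618 needed 4 edits in the same orientation and 8 in the reverse complement, ADGRD1 6 and 6, and CLSTN2 8 and 9.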
